A study of Mus musculus with 17 samples.

Results

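The start sites of 49 developmental transcription factor genes were followed through maps of nuclease-protected DNA in mouse embryonic stem (ES) cells and mouse sperm. The genes comprise 5 Gata, 9 Sox, 11 Fox, 8 T-box, 14 basic helix-loop-helix (bHLH) and 2 Zic genes. A row of a table counted as a member where its RefSeq transcript maps to one of these symbols, and repeated positions were taken once. This gave 50 of the 24084 start sites in the tables of ES cells, standard sperm and unspun sperm, because Tbx4 has 2 of them. In the tables of the supernatant and pellet series it gave 45 of 16482, since Sox10, Sox14, Sox21, Tbx20 and one of the Tbx4 start sites have no row there. The authors classed 42 of the member start sites as high-CpG and 3 as intermediate-CpG, those of Myf5, Sox17 and Zic4. None is low-CpG, and 5 carry no class.

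Micrococcal nuclease (MNase) digests DNA that no protein covers, so the fragments that survive a digestion mark packaged DNA. The ES cells were of the E14 line, strain 129 X Ola, grown in serum with LIF, and their library is the supernatant of a digestion; the labels mention crosslinking for sperm only. All sperm came from C57/B6J males 10 weeks old, taken from the cauda epididymis and vas deferens and crosslinked with 1% formaldehyde for 15 min. Standard sperm is the supernatant of a digestion with far less enzyme per cell than the ES cells received. In the 3 titrations sperm were digested with rising units, as an unspun series at 0.5, 2, 10 and 50 units and as a supernatant and a pellet series at 1, 5, 20 and 100 units. E14 is 1 cell line, and the labels do not say how many males were pooled. Each of the 14 libraries analysed is the only one of its group, so there is no replicate. Every interval below is a 95% interval for counting error alone. No test between groups is made, apart from pellet against supernatant with the doses taken as pairs. Strain, crosslinking and enzyme per cell differ between ES cells and standard sperm and cannot be told apart from cell type. Every cell carries every promoter, so these data hold no marker with which to check the labelled cell type.

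These families direct the choice of cell fate in the embryo. Gata proteins bind DNA with zinc fingers, Sox proteins with an HMG box, Fox proteins with a forkhead domain, T-box proteins with the domain that names them, and bHLH proteins as dimers on E-boxes. In ES cells most such genes are silent and their CpG-rich promoters are held by Polycomb complexes with bivalent histone marks. In sperm, where protamines replace most histones, promoters of developmental regulators are known as places where histones can be retained.

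The sequence just upstream of the start site is shown for 6 members, because these promoters span the extremes of the measurements and of CpG content. Of the 49 genes, 33 have an entry in the RefSeq promoter table, and 3 of these have several (Foxa2, Gata2 and Tbx1) and were not used further, nor was Tbx4 with its 2 start sites. The genes without an entry are Sox17, Tbx15, Sox9, Olig1, Bhlhe22, Foxb1, Foxc2, Tbx2, Sox10, Foxe1, Sox18, Tbx5, Hand1, Gata6, Gata4 and Myod1. Each line gives the 250 bases before the start site, read 5′ to 3′ on the strand of the gene, with every CpG in capitals. The sequences and their coordinates are from RefSeq on GRCm38.p6, while the coordinates of the measurements are mm9. Sox8 (chr17:25570687-25570936 on the minus strand) and Twist1 (chr12:33957421-33957670 on the plus strand) had the lowest ratios of standard sperm to ES cells among members with a sequence, and each holds 18 CpG.
Sox8: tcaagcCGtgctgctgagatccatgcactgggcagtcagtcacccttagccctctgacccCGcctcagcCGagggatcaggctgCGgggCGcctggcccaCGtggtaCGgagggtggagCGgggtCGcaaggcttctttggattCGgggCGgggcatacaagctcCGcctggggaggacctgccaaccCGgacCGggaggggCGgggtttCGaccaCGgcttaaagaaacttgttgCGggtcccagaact
Twist1: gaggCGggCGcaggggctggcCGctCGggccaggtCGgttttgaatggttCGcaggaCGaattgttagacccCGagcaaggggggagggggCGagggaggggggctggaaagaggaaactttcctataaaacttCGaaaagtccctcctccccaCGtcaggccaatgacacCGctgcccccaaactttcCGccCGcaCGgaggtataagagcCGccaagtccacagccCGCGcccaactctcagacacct
Sox21 (chr14:118237031-118237280 on the minus strand) and Tbx18 (chr9:87731261-87731510 on the minus strand) had the highest ratios and hold 17 and 15 CpG.
Sox21: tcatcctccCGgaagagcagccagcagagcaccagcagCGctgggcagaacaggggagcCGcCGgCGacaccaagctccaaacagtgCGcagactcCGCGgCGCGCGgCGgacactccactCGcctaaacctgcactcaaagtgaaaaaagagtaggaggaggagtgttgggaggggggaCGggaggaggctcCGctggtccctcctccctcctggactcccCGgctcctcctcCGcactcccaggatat
Tbx18: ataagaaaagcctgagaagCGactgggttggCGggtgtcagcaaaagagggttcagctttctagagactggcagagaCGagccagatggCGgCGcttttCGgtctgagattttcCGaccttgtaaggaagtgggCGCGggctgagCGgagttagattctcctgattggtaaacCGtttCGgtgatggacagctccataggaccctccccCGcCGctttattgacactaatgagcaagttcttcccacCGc
Myf5 (chr10:107486135-107486384 on the minus strand) holds the fewest CpG among the members, 3. Sox1 (chr8:12395269-12395518 on the plus strand) holds 29, the most, a number shared with Foxc1 and Neurog1.
Myf5: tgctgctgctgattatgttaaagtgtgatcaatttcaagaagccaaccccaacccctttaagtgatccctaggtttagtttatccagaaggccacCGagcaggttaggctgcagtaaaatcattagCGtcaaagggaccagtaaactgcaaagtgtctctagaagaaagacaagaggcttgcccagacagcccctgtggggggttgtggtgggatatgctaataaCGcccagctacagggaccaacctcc
Sox1: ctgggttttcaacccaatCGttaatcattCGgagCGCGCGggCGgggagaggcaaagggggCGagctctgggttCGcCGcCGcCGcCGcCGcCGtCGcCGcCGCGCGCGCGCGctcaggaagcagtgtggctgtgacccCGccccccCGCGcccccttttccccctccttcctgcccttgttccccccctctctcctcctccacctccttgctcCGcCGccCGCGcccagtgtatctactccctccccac

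Fragments were summed over 1000 bp to each side of a start site, as fragment equivalents (the table's sum divided by what 1 isolated fragment adds to it). Over all start sites this gave a mean of 32.2 fragments in ES cells and 21.6 in standard sperm, so single members can be read in these libraries. The titration libraries hold a mean of 0.212 to 1.13 fragments per start site, so there the members are read pooled. A level below is a member's fragments divided by the mean over all start sites of that library, and a log2 ratio compares the share of fragments in standard sperm with that in ES cells after 1 fragment was added to each. The pseudocount pulls a start site with hardly any fragments in either library towards a positive ratio, because the sperm library is shallower, whereas the intervals were made without it. Reads carry no molecular identifiers, so copies made by PCR would make intervals too narrow.

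Most members carried fewer fragments than the average start site in both cell types, and the shortfall was larger in standard sperm. ES cells had from 1.45 to 42.4 fragments per member with a median of 22.2, and standard sperm from 1 to 35.5 with a median of 9.77. The mean level of the members was 0.700 in ES cells and 0.540 in standard sperm, where other high-CpG start sites had 0.946 and 0.803. In ES cells 40 of the 50 start sites lay under the mean of their library, against 52% of all start sites and 59% of the other high-CpG ones. In standard sperm 43 did, against 59% and 72%, and 38 lay under the mean in both libraries.

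Relative to ES cells, member start sites as a group took a smaller share of the fragments within 1000 bp in standard sperm, and so did other high-CpG start sites. The median log2 ratio was -0.39, with 35 below 0 (background 53.2% of all start sites and 65.5% of other high-CpG ones) and 15 above, beside a median of -0.06 over all start sites and -0.25 over other high-CpG ones. Pooled over the members the log2 ratio was -0.37 (-0.52 to -0.23), an interval that holds the -0.24 of other high-CpG start sites. Over the 42 high-CpG members alone it was -0.50 (-0.67 to -0.33), which leaves out -0.24. Of these 42, 42.9% had a 1.5-fold lower share and 26.2% a 2-fold lower one, against 29.3% and 12.2% of other high-CpG start sites. Scaled to high-CpG start sites the pooled ratio of all 50 members was -0.14. A 1.5-fold lower share was seen at 19 of 50 members, 38%, against 22.2% of all start sites and 29.3% of other high-CpG ones. A 1.5-fold higher share was seen at 4, Sox21, Foxd3, Tbx18 and Tbx5, against 17.5% and 9.5%. Scaling to high-CpG start sites made them 8, a count to which those background shares do not apply. Within 200 bp of the start site the median turned to 0.22, with 15 members 1.5-fold lower and 16 higher. By construction a start site with no fragment in either library counts as higher there. With the added fragment scaled to depth the median was negative again and fewer members were higher. Background shares were not computed for this window, so its counts are not read as a reversal. At 11 members the share was lower by 2-fold or more, against 8.89% of all start sites and 12.2% of other high-CpG ones, and at 1 member, Sox21, it was higher by 2-fold, against 7.37% and 3.04%. The interval lay wholly below 0 at 9 members, against 10.7% and 13.7%, and wholly above 0 at 1, against 10.9% and 4.06%. Other lists gave like medians, at -0.41 over 41 Hox start sites, -0.36 over those of homeodomain and Pax genes and -0.34 over 32 of proteasome genes, which every cell uses. The proteasome list lay at a higher level, 1.27 in ES cells and 0.972 in standard sperm. Across the 50 members the log2 levels in the 2 libraries had a Pearson correlation of 0.62 and a Spearman correlation of 0.58, beside 0.58 and 0.55 over other high-CpG start sites, all sites of a library sharing its depth and digestion.

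**Figure D1:**
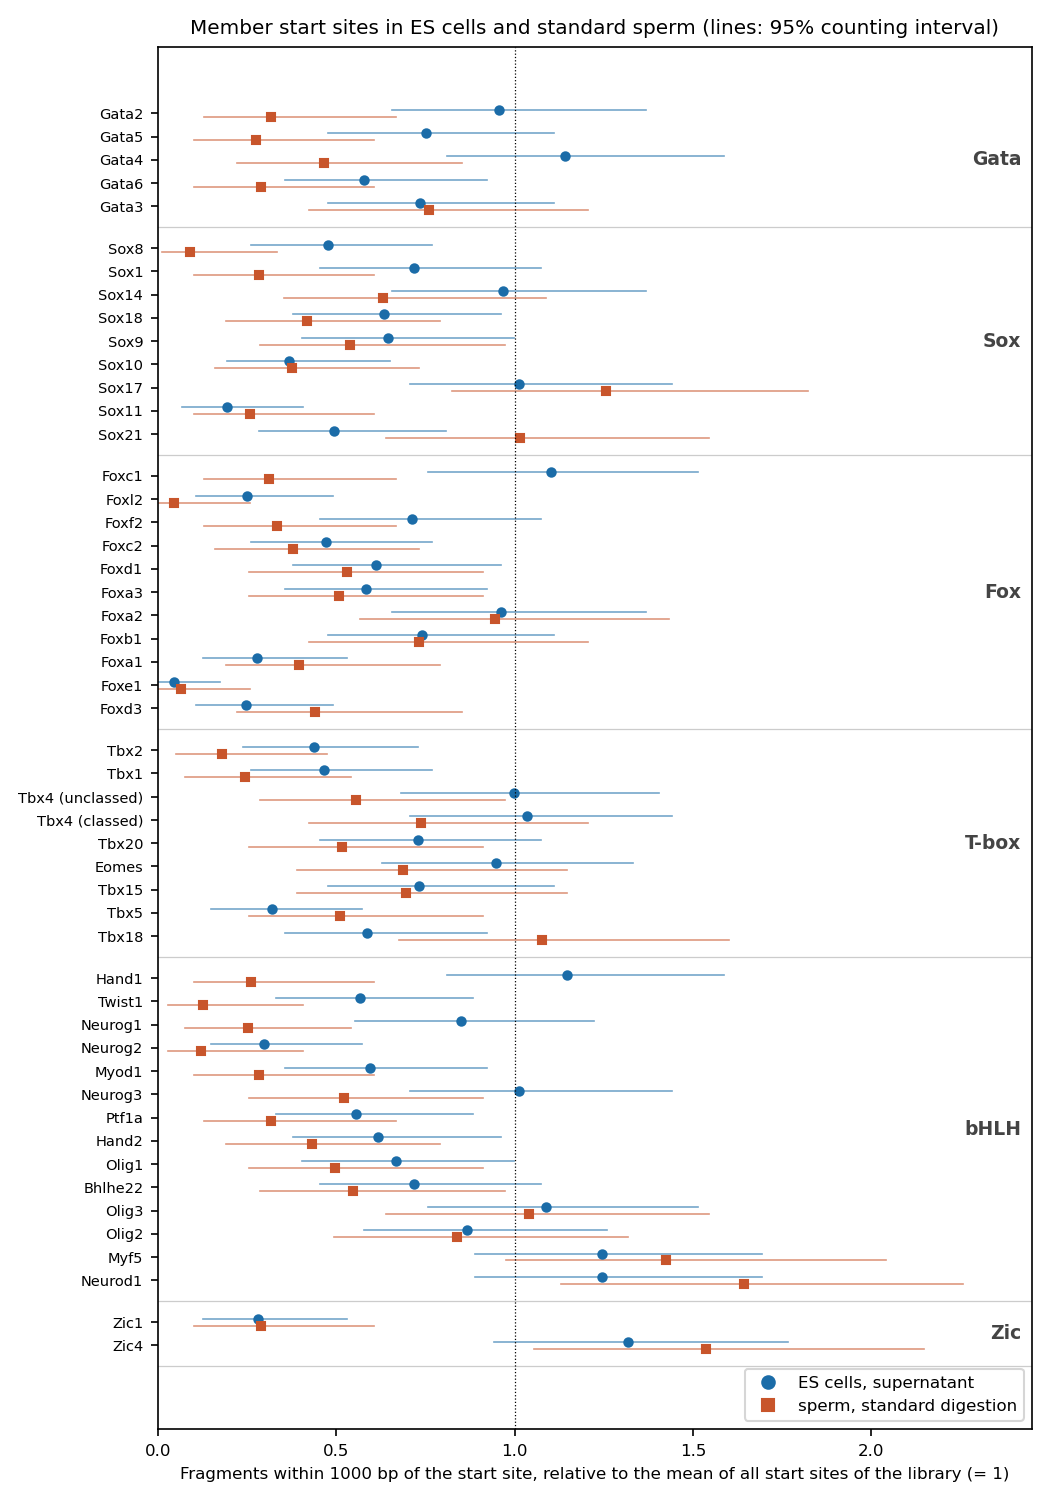
Fragments within 1000 bp of each member start site, divided by the mean of all start sites of the library (dotted line at 1), for ES cells (circles) and standard sperm (squares), with 95% counting intervals and members grouped by family. The sperm points of Gata2, Foxc1, Hand1, Twist1 and Neurog1 lie well to the left of the ES cell points, while Sox21 and Tbx18 show the opposite order.

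Gata genes showed the lowest median ratio of the families, -1.19, with 4 of 5 at a 1.5-fold lower share in standard sperm, against 22.2% of all start sites and 29.3% of other high-CpG ones. The family's pooled log2 ratio was -0.98 (-1.52 to -0.50). Gata2, needed for blood stem and progenitor cells (mm9 chromosome 6, 88148657), had 30.7 fragments in ES cells and 6.82 in standard sperm, a log2 ratio of -1.44 (-3.0 to -0.36). Its ES cell level of 0.956 was near the average start site and its sperm level of 0.316 was not. Gata4 (chromosome 14, 63864097), a factor of heart and endoderm, showed the same order with 36.7 and 10.0 fragments and a log2 ratio of -1.19 (-2.48 to -0.27), which over 2000 bp to each side was -0.37. Gata5 (chromosome 2, 180069384), active in the same tissues, had 24.2 and 5.91 fragments and -1.29 (-3.0 to -0.10). Gata6, which specifies primitive endoderm, had 18.6 and 6.23 fragments, and its ratio of -0.86 has an interval that holds 0 (-2.70 to 0.29). Gata3, the T helper cell and trophoblast factor, stood apart with 23.6 and 16.4 fragments and a ratio of 0.07 (-1.02 to 0.96).

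Sox genes spread over the widest range of any family, from -1.89 at Sox8 to 1.02 at Sox21, with a median of -0.21. Sox8, a neural crest and gonad factor (chromosome 17, 25707631), had 15.4 fragments in ES cells and 1.95 in standard sperm (-5.50 to -0.23). The call of Sox8 depends on the window, since its ratio was -0.32 over 2000 bp and -0.04 over 200 bp to each side. Sox1, a neuroectoderm factor (chromosome 8, 12395518), had 23 and 6.09, a log2 ratio of -1.19 (-2.95 to -0.03). That of Sox1 does too, with a ratio of 0.32 over 2000 bp and 0.54 over 200 bp. Sox21, a neural progenitor factor (chromosome 14, 118636252), had 15.9 fragments in ES cells and 21.9 in standard sperm, and its interval of 0.04 to 2.06 was the only one wholly above 0. Of the sperm fragments of Sox21, 21 lay 300 to 1000 bp upstream and 0.909 at 300 to 1000 bp downstream, and no fragment lay within 200 bp of the start. Sox17, an endoderm factor with an intermediate-CpG promoter, was at the average in ES cells with 32.5 fragments. In standard sperm it had 27.1, a level of 1.26 (0.825 to 1.82). Sox11, a factor of immature neurons, was low in both with 6.23 and 5.55. The others, Sox14, Sox18, Sox9 and Sox10, had ratios from -0.56 to 0.08 with intervals that hold 0. Sox10 has the start site of Gm10863 at 1575 bp, so their windows overlap.

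Fox genes were the most depleted family in ES cells, with a mean level of 0.545, and had 0.426 in standard sperm. Their median log2 ratio was -0.15, and 3 of 11 were lower by 1.5-fold, a share near the 22.2% of all start sites and 29.3% of other high-CpG ones. Foxc1, a factor of mesoderm and the eye (chromosome 13, 31898514), had 35.4 fragments in ES cells and 6.73 in standard sperm, a log2 ratio of -1.66 (-3.16 to -0.55). Foxl2, the ovarian factor, had 8.00 and 1, and Foxf2, of gut mesenchyme, had 22.9 and 7.18, with intervals that hold 0 in both cases (-7.90 to 0.48 and -2.60 to 0.13). Foxe1, the thyroid factor, had the fewest fragments of any member in ES cells, 1.45, and 1.41 in standard sperm, where Foxl2 had fewer. Foxd3, which acts in pluripotent cells and neural crest, had 7.95 and 9.5 fragments and the family's highest ratio among those with 10 or more fragments in the 2 libraries, 0.81 (-0.59 to 2.44), which over 2000 bp was 0.08. The pioneer factors of liver and endoderm differed in level. Foxa2 had 31 and 20.4 fragments, Foxa3 18.7 and 11, and Foxa1 8.95 and 8.55. The remaining 3, Foxb1, Foxc2 and Foxd1, had ratios from -0.24 to 0.01. The start sites of Foxl2os, 296 bp from Foxl2, and of Sympk, 837 bp from Foxa3, fall inside those windows.

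T-box genes had a median log2 ratio of -0.43, and none of their intervals left out 0. Tbx2, a factor of heart and limb, gave the family's lowest ratio with 14.1 fragments in ES cells and 3.86 in standard sperm, -1.06 (-3.29 to 0.44), and -0.28 over 2000 bp. Tbx18, of the epicardium and ureter, gave the highest, with 18.9 and 23.2 fragments and 0.86 (-0.09 to 1.81), and 0.52 over 2000 bp. The 2 start sites of Tbx4, a hindlimb and lung factor, had like values. The high-CpG one (chromosome 11, 85703564) had 33.2 and 15.9 fragments, and the unclassed one (85710266) had 32.1 and 12. Eomes, a factor of trophoblast and mesendoderm, had 30.5 fragments in ES cells and 14.8 in standard sperm. Tbx1, Tbx20, Tbx15 and Tbx5 had ratios from -0.77 to 0.67.

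The bHLH genes had the second lowest median, -0.57, with 7 of 14 at a 1.5-fold lower share and none at a 1.5-fold higher one, against 22.2% and 17.5% of all start sites and 29.3% and 9.5% of other high-CpG ones. Hand1, which drives trophoblast giant cell and heart development (chromosome 11, 57645649), had the lowest ratio of all members, with 36.9 fragments in ES cells and 5.64 in standard sperm, -1.94 (-3.58 to -0.79). Twist1, of mesoderm and neural crest (chromosome 12, 34642535), had 18.2 and 2.73 fragments and -1.79 (-4.41 to -0.23). Neurog1, a proneural factor (chromosome 13, 56353524), had 27.3 and 5.45 and -1.56 (-3.59 to -0.46). The related Neurog2 and Neurog3 had 9.59 and 2.64, and 32.6 and 11.2, and both intervals reach past 0. Ptf1a, of the pancreas, and Myod1, which commits cells to muscle, had ratios of -0.69 and -0.92 with intervals that hold 0.

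Among bHLH genes, Neurod1, Myf5 and Olig3 were as full as the average start site or fuller. Neurod1, of neurons and endocrine pancreas, had 40 fragments in ES cells and 35.5 in standard sperm, the most of any member in sperm, at a level of 1.64. Myf5, the other early muscle factor, had 40.05 and 30.7 fragments, unlike Myod1 with 19.1 and 6.14. Olig3 and Olig2, factors of the neural tube and oligodendrocytes, had 35 and 22.4 fragments and 27.9 and 18.1, with ratios of -0.04 and -0.02. Olig2 lay below the average start site, at levels of 0.866 in ES cells and 0.839 in standard sperm. Olig1, Hand2 and Bhlhe22 had ratios from -0.44 to -0.34 and lay below the average start site in both libraries. The 2 Zic genes, zinc-finger factors of the neural plate and cerebellum, are neighbours on chromosome 9 and differed in level. Zic4 had 42.4 fragments in ES cells, the most of any member there, and 33.1 in standard sperm, whereas Zic1 had 9 and 6.23.

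At the start site itself the members were less emptied, relative to their own flanks, than other high-CpG promoters. The signal over the 200 bp upstream was 0.500 of the flanks at 1000 to 2000 bp in ES cells (0.397 to 0.622) and 0.496 in standard sperm (0.370 to 0.649). Other high-CpG start sites had 0.346 and 0.291. Over the 300 bp downstream the members had 0.584 (0.493 to 0.689) in ES cells and 0.362 (0.274 to 0.469) in standard sperm, and the others 0.315 and 0.168. The 42 high-CpG members alone had upstream ratios of 0.498 (0.385 to 0.637) in ES cells and 0.418 (0.285 to 0.576) in standard sperm. That sperm interval holds the 0.291 of the others. Downstream these 42 had 0.544 (0.445 to 0.657) and 0.346 (0.251 to 0.468), intervals that lie above the others. The flanks of the members were themselves low, at a level of 0.789 in ES cells and 0.672 in standard sperm, where other high-CpG flanks had 1.08 and 0.996, so part of the higher ratio lies in the flanks. In absolute terms, from 200 bp upstream to 300 bp downstream, the members' signal per bp was 0.487 (0.426 to 0.556) of the table mean in ES cells, beside 0.396 at other high-CpG start sites, and 0.331 (0.271 to 0.398) in standard sperm beside 0.256. These absolute values include the intermediate-CpG members, among them Myf5 and Zic4, and the unclassed ones. They were not computed for the 42 high-CpG members alone. An absolute excess over other high-CpG start sites within the same CpG class was therefore not tested.

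Members differed among themselves at the start site. No fragment (under 0.5 of one) lay within 200 bp at 10 of 50 members in ES cells, against 18.3% of all start sites and 20.7% of other high-CpG ones. In standard sperm 18 members had none, against 26.3% and 34.5%, so in both libraries the members were close to other high-CpG start sites. Of the 25 members with 20 or more flank fragments in standard sperm, 21 had less signal per bp within 200 bp of the start than in the flanks, beside 89.8% of all such start sites and 98.3% of other high-CpG ones. The 4 exceptions were Zic4 at 2.65 times its flanks, Myf5 at 1.54, Bhlhe22 at 1.21 and Sox9 at 1.01. Zic4 had 10.5 fragments within 200 bp in ES cells and 12.5 in standard sperm, and Myf5 had 13.8 and 9.59. By contrast Gata2, Foxf2, Sox8, Sox21, Twist1 and Tbx15 were among the members with none there in standard sperm. In ES cells 36 of the 44 members with enough flank fragments lay below their flanks, beside 82% of all start sites and 93.9% of other high-CpG ones.

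The trough in fragments reached further into the gene at the members than at other high-CpG promoters. This stretch was chosen after the profiles were seen. From 300 to 1000 bp downstream the members' signal per bp was 0.458 (0.407 to 0.513) of the table mean in ES cells and 0.256 (0.211 to 0.306) in standard sperm, while other high-CpG start sites had recovered to 0.868 and 0.659. From 1000 to 200 bp upstream the members had 0.832 in ES cells and 0.671 in standard sperm, and the others 1.07 and 0.902. In ES cells 31 of 50 members lay under 0.5 of the table mean in the downstream stretch, against 28.3% of other high-CpG start sites and 28.4% of all. In standard sperm 42 did, against 45.4% and 38.8%. Standard sperm had no fragment at all there at Foxd1, Foxd3, Foxe1, Foxf2, Foxl2, Olig1, Olig3, Sox18, Sox9 and Twist1, although Olig3 had 16 and Foxd1 10.5 fragments at 300 to 1000 bp upstream. The share of other start sites with no fragment in the downstream stretch was not computed, so this list is not read as a trait of these genes. Fox genes had the lowest level there in standard sperm, 0.119 (0.061 to 0.206). In ES cells T-box, Sox and Fox genes were the low ones, at 0.362, 0.363 and 0.421. The members that kept most in standard sperm were Sox17 with 15.6 fragments, Neurod1 with 13.9, Myf5 with 8.68 and Tbx15 with 8.64. Homeodomain and Pax genes also had a low downstream stretch, at 0.579 in ES cells and 0.370 in standard sperm.

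**Figure D2:**
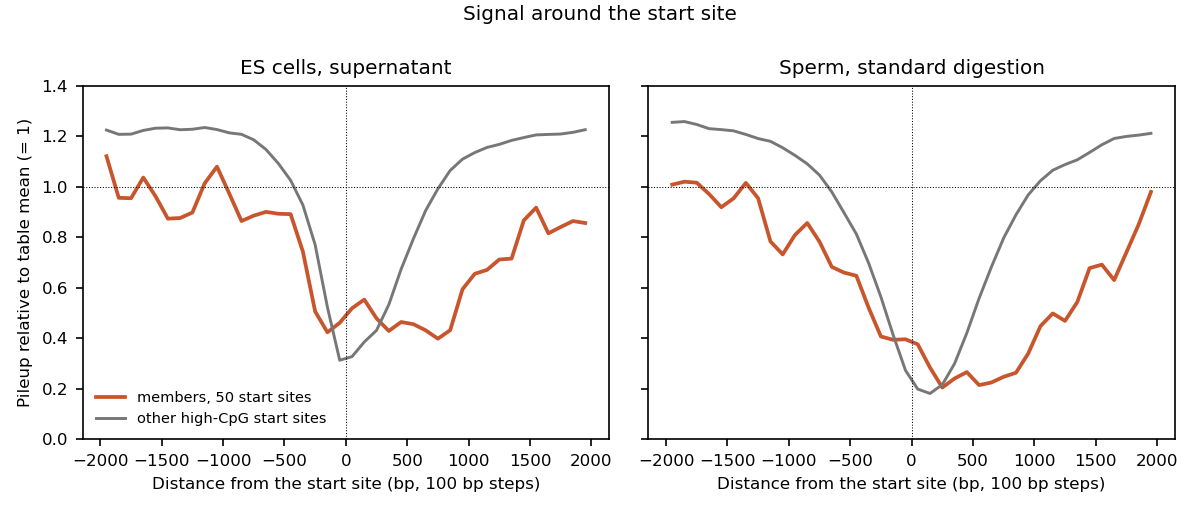
Mean pileup in 100 bp steps around the start site, relative to the table mean, for the 50 member start sites and the 10534 other high-CpG start sites, in ES cells (left) and standard sperm (right); upstream is to the left. The member curve stays low well past the point downstream where the other high-CpG curve has climbed back, and lies lower in standard sperm.

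The members' promoters were rich in CpG. The 250 upstream bases held a median of 19 CpG (3 to 29) over the 29 members with a single sequence, beside 11 over all other genes and 17 over other high-CpG genes, and a median of 65.6% GC beside 56% and 61.6%. The members with the fewest CpG were Myf5 with 3 and Zic4 and Olig3 with 4 each, and all 3 lay above the average start site in both libraries. The members with 29, Sox1, Foxc1 and Neurog1, had sperm levels of 0.282, 0.312 and 0.253. Across the 29 the number of CpG had a Spearman correlation of -0.37 with the level in standard sperm, -0.04 with that in ES cells and -0.34 with the log2 ratio, given as a description. Over 6652 other high-CpG genes it was -0.28, -0.23 and -0.08. The 29 include intermediate-CpG Myf5 and Zic4 and unclassed Sox14, Sox21 and Tbx20, so the sets compared differ in CpG class. The correlation was not computed over high-CpG members alone. Neurod1, with 22 CpG and a sperm level of 1.64, does not follow the order of a lower sperm level with more CpG. Base composition also affects which fragments are cut and sequenced, and its part in these values was not tested.

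**Figure D3:**
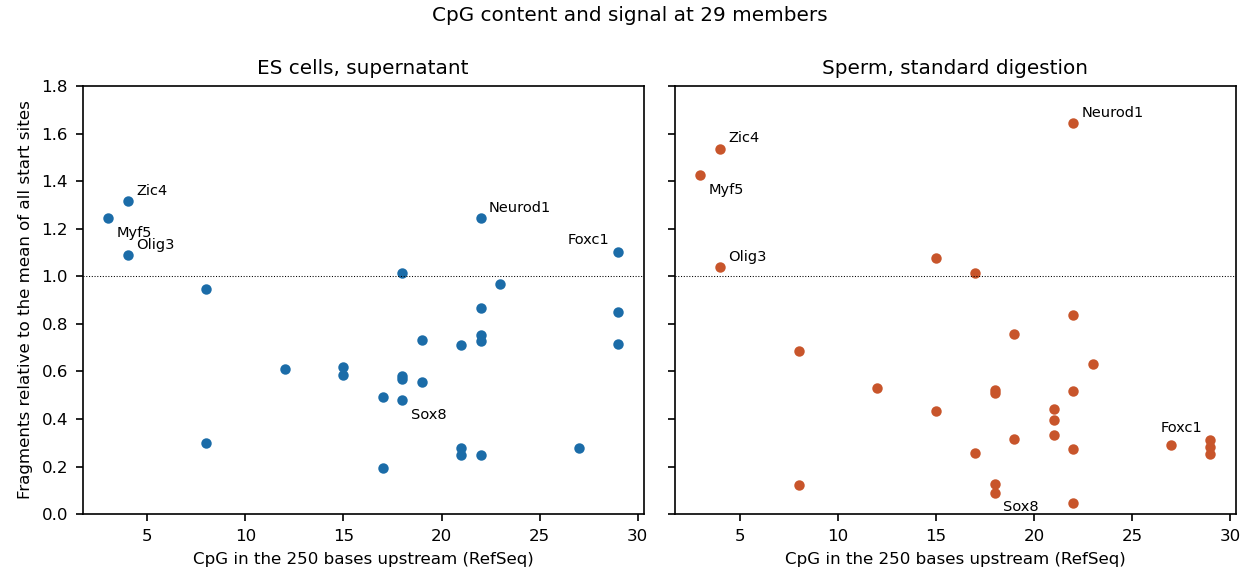
Fragments within 1000 bp relative to the mean of all start sites (vertical axis; dotted line at 1) against the number of CpG in the 250 upstream bases of the RefSeq promoter, for the 29 members with a single promoter sequence, in ES cells (left) and standard sperm (right). Myf5, Zic4 and Olig3 have few CpG and lie above 1 in both panels, and the 3 members with 29 CpG are low in standard sperm.

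In the sperm titrations, apart from the 1-unit supernatant, the pooled level of the members was at or above the average start site within its interval, unlike in the standard digestion. In the unspun series the pooled level of the 50 start sites was 0.925 (0.662 to 1.28) at 0.5 units, 1.35 (1.02 to 1.76) at 2, 1.32 (0.970 to 1.79) at 10 and 1.44 (1.07 to 1.91) at 50. These rest on 37.5, 55, 43.5 and 48.9 fragments. The lowest dose was at the average start site within its interval, and the 2-unit and 50-unit libraries were above it. On the scale of other high-CpG start sites, and over the 45 start sites found in every table, the members stood at 0.738 (0.694 to 0.786) in ES cells and 0.661 (0.605 to 0.721) in standard sperm. On that same scale they stood at 0.874 to 1.21 in the unspun libraries, 0.687 to 1.22 in the supernatants and 0.994 to 1.17 in the pellets, and each of these 12 intervals holds 1.

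**Figure D4:**
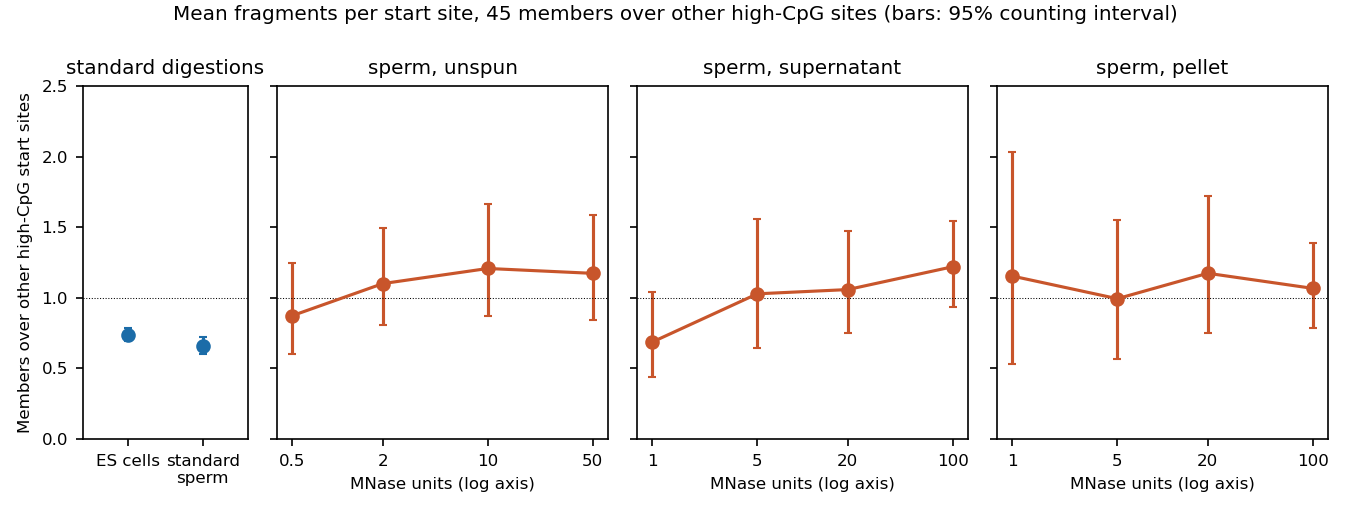
Mean fragments per start site within 1000 bp at the 45 members found in every table, divided by the mean at the 10534 other high-CpG start sites of the same library (dotted line at 1), for the standard digestions (left) and the 3 sperm titrations by MNase units on a log axis, with 95% counting intervals. ES cells and standard sperm lie below 1, and the intervals of all 12 titration libraries include 1.

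The members' level was higher at the highest than at the lowest dose in the supernatant series. It was 0.630 (0.404 to 0.956) at 1 unit, 0.989 (0.620 to 1.5) at 5, 1.06 (0.752 to 1.47) at 20 and 1.29 (0.991 to 1.64) at 100, from 22.7, 22, 36.7 and 65.4 fragments. The fold from lowest to highest dose was 2.05 (1.23 to 3.4), where other high-CpG start sites had 1.15. In the unspun series it was 1.56 (0.991 to 2.43) beside 1.18. In the pellet series the level was 1.09, 0.993, 1.22 and 1.20 at the 4 doses, and the fold of 1.09 (0.568 to 2.5) beside 1.18 does not leave out 1. Homeodomain and Pax genes had folds of 2.38 in the unspun, 2.70 in the supernatant and 1.73 in the pellet series. The slopes of the members' log2 level per doubling of units were 0.08, 0.15 and 0.03, with counting errors of 0.04, 0.05 and 0.07 (SE). Isolated signal was narrower in the 1-unit count tables than at the other doses, and the part of this in the 1-unit level was not tested. The folds rest on the lowest dose: without the 1-unit library the supernatant fold was 1.31, and without the 0.5-unit library the unspun fold was 1.07. With bins read as 20 bp the pellet fold was 2.10. Within 200 bp of the start site, where few fragments lie, the folds were 0.839 in the unspun, 0.749 in the supernatant and 0.221 in the pellet series.

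The number of members with a fragment followed the same course. With at least 0.5 fragments within 1000 bp counted, 10 of 45 members had one in the 1-unit supernatant, against 39.4% of all start sites. At 5, 20 and 100 units 16, 24 and 35 of 45 did, against 30.7%, 47% and 60%. So members were fewer than the background at the lowest dose and more numerous than it at the highest. In the pellet 6, 12, 14 and 25 of 45 had one, against 12.1%, 24.2%, 30.2% and 51.5%, which is near the background at each dose. In the unspun series 25, 34, 27 and 31 of 50 did, against 52.7%, 53.1%, 45.7% and 46.6%. Over all members, pellet and supernatant were not distinguishable at matched units, with log2 ratios of 0.80, 0.01, 0.21 and -0.11 and intervals that all hold 0, the widest at 1 unit (-0.52 to 1.85) and the narrowest at 100 units (-0.67 to 0.44). With the 4 doses taken as pairs, a test added after the data were seen, the mean log2 difference of pellet over supernatant was 0.23 ± 0.40 (SD, n = 4 pairs, 3 of them higher in the pellet; exact two-sided permutation p = 0.375, and 4 pairs cannot go below 0.125). The doses are different conditions and not replicates, so the SD and p describe spread across doses only, and no conclusion is drawn from them. By family, 1 of 22 intervals left out 0, that of bHLH genes at 1 unit, with 8.45 fragments in the pellet and 1.98 in the supernatant and a log2 ratio of 4.02 (1.59 to 7.19). At 5 units bHLH genes had 2.60 and 12.1 fragments, the opposite order, with an interval that holds 0.

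Fragments at single members were too few in the titrations to rank genes, and the values that follow are counts in these libraries only. In the unspun series Sox10 had the most, with 0, 3.45, 1.00 and 4.82 fragments from the lowest dose to the highest, followed by Foxb1 with 8.41 in all, Gata6 with 8.00, Neurog2 with 7.55 and Foxf2 with 7.45. In the supernatants Neurog2 led with 0, 2.93, 0.733 and 5.48, followed by Tbx18 with 8.86 in all, Foxf2 with 8.77, Sox17 with 7.03 and Neurog3 with 6.96. Most of the signal of Tbx18 and of Sox17 lay in the 1-unit library, at 5.93 fragments each. In the pellets Sox8 led with 0, 1.48, 4.45 and 2.24, followed by Hand1 with 6.71 in all, Gata2 with 5.59, Olig2 with 5.45 and Foxd3 with 5.21.

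Summed over all 12 titration libraries, the 45 members held from 3.84 fragments at Twist1 to 17.7 at Foxf2, with a median of 8.12. Neurog2 had 16.7 in all, none of it in the pellet. Sox9 was the one member under 0.5 fragments over the unspun series. That held for 5 members over the supernatant series, Foxd1, Foxe1, Olig3, Twist1 and Zic1, and for 6 over the pellet series. The share of all start sites under 0.5 fragments over a whole series was not computed, so these counts are not read as a trait of the members. Olig3, Zic4 and Neurod1, among the fullest members in standard sperm with 22.4, 33.1 and 35.5 fragments, had 0, 1.10 and 0.733 in the supernatants. Tbx18, Sox17 and Myf5, with 23.2, 27.1 and 30.7 in standard sperm, had 8.86, 7.03 and 5.64 there, so full members went both ways, at counts too low to rank genes. Among the members, the titration totals had Spearman correlations with the standard sperm level of -0.16 (unspun, 50 start sites), -0.01 (supernatant, 45) and -0.12 (pellet, 45), and at such counts these are no finding.

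**Figure D5:**
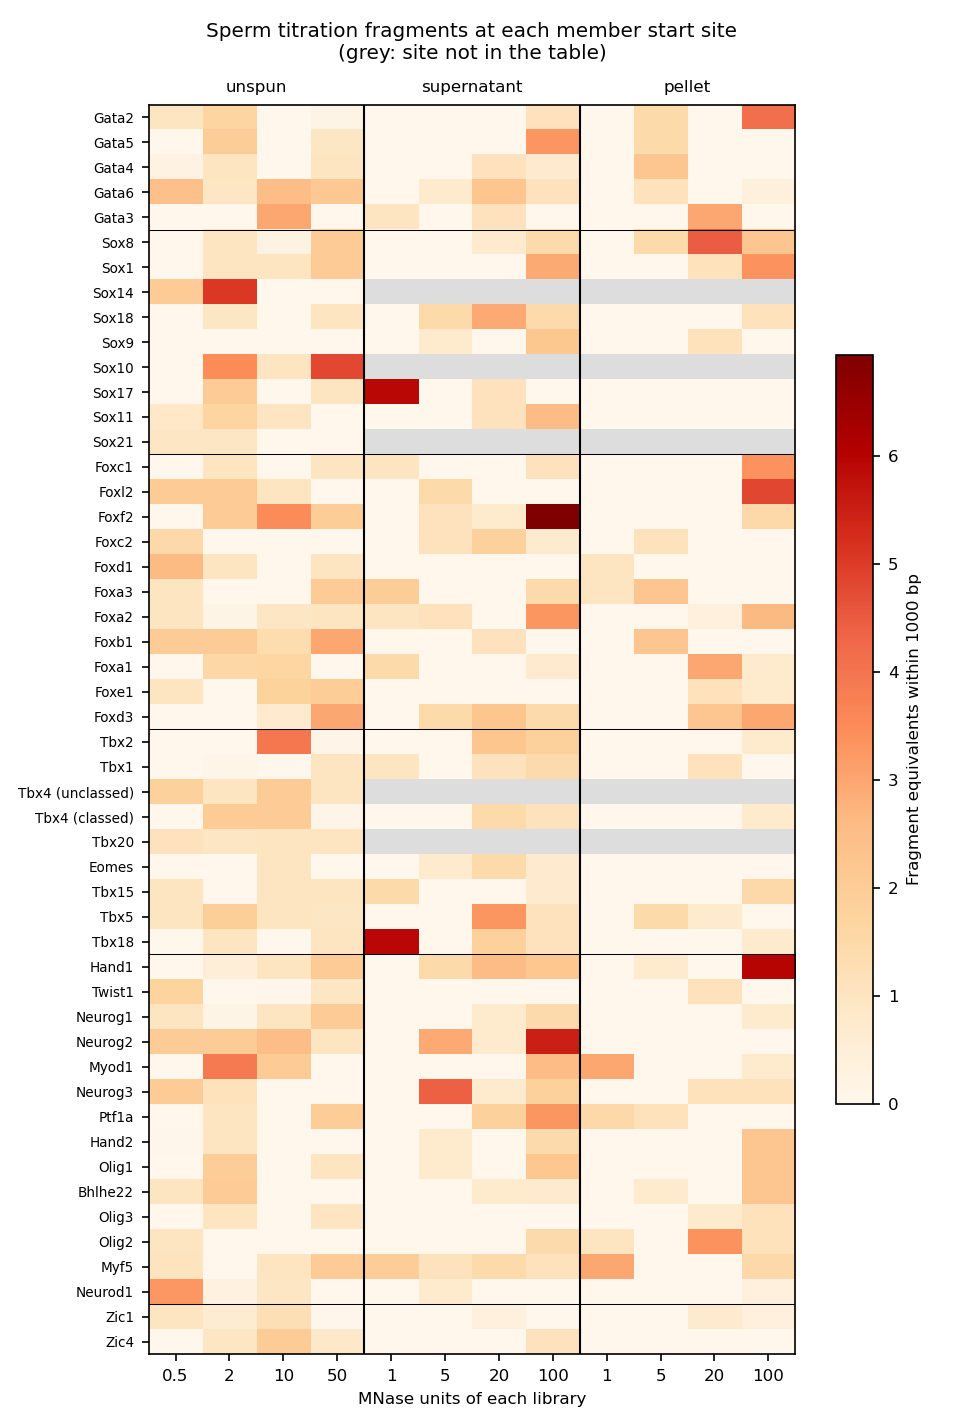
Fragment equivalents within 1000 bp at each member start site (rows, by family) in the 12 sperm titration libraries (columns, by series and MNase units), as a colour scale from 0; grey marks start sites with no row in the table. Most cells hold fewer than 3 fragments, and the 100-unit supernatant and pellet columns have fragments at the most members of their series.

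The downstream trough was not seen in the titrations. Summed over the 4 unspun libraries, the members' signal from 300 to 1000 bp downstream was 1.39 (1.08 to 1.75) of the table mean, beside 1.12 at other high-CpG start sites. It was 1.00 (0.749 to 1.33) beside 1.03 in the supernatants and 1.55 (1.13 to 2.06) beside 1.13 in the pellets. From 200 bp upstream to 300 bp downstream the members had 1.15 (0.827 to 1.55) in the unspun libraries, 1.24 (0.903 to 1.67) in the supernatants and 1.08 (0.700 to 1.66) in the pellets. The pellet value at the start was below that of the other high-CpG start sites, 1.39, which lies inside its interval. The unspun tables hold the same kind of values as the standard ones, from fragments of mononucleosome length, whereas no fragment length is stated for the supernatant and pellet tables in the sources used here.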

How the data were processed

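Of 17 samples, 14 were analysed, and the unspun ES cell library, the sperm input and the sperm panH3 immunoprecipitation were not analysed here. The submitters' processing notes name Bowtie, with no version, SAMtools 0.1.16 and the build mm9. For ES cells, standard sperm and the unspun series the authors deposited a signal, an unscaled pileup in 20 bp bins over 2000 bp to each side, from fragments of 135 to 165 bp per the table names, in which an isolated fragment adds 22. In the supernatant and pellet tables the deposited values are unscaled counts per bin, with promoter classes per the file headers. Their bins were read as 50 bp, because windows that share DNA then hold equal values far more often than at 20 bp, and an isolated fragment adds 2.01 to 2.74 counts. For the pellet samples at 5 and 20 units the label's description disagrees on the units, and the title was followed.

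Members were matched through RefSeq (GRCm38.p6, names and sequences only). The members and lists were chosen with earlier results of these data known. Fragments within 1000 bp were compared as log2 ratios of shares with a pseudocount of 1 and exact conditional (Clopper-Pearson) intervals, pooled levels with exact Poisson intervals, both at 95% on rounded fragments. A member was counted as changed past 1.5-fold. Flank ratios of single members needed 20 flank fragments. The 2 deeper tables held 1272530 to 1762510 fragments and the 12 of the titrations held 18868 to 82607. Members named with full values are the extremes of each family's ratio, those whose interval leaves out 0, the 3 with the most and fewest fragments in each deep library, the 5 with the most in each titration series and the extremes of CpG content; others are named to account for every member. The ratio was tested on simulated data. Alternatives were the window, pseudocount, scaling, flanks, bin size, single doses and the top member, and those added after seeing the data were a depth-scaled pseudocount, the doses as pairs and the unspun series at the start sites of the count tables. Python 3.11.15, numpy 2.4.6, pandas 2.3.3 and scipy 1.17.1 were used.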

Additional observations from a re-analysis of the deposited data

How the results depend on the processing

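Of 94 summary values recomputed under an alternative, 78 stayed within their limits, and of 217 ratios of single named members 200 stayed within their interval. The limits were the interval of the reported value, or a factor of 1.5 for counts of members. For the slopes and folds of the titrations the direction was not checked, and some of those intervals hold no change. Within 200 bp the median log2 ratio of standard sperm to ES cells was 0.22, the opposite sign, with 16 members 1.5-fold higher. By construction a start site with no fragment in either library gets a positive ratio there, and with a pseudocount scaled to depth (chosen after seeing the data) the median was -0.06 with 10 members higher. Within 200 bp the slopes of the titrations were -0.023 (unspun), -0.077 (supernatant) and -0.24 (pellet) and the folds 0.839, 0.749 and 0.221; the cause was not tested. Within 2000 bp 1 member was 1.5-fold higher. A pseudocount of 5 left 11 members lower, and scaling to high-CpG start sites gave 8 higher and a pooled log2 ratio of -0.14. Shares over all start sites were not computed under these alternative settings. The counts of members lower or higher under them are therefore not read as a result about the members. Flanks at 500 to 1000 bp gave start-site ratios of 0.648 in ES cells and 0.777 in standard sperm, and 300 bp downstream in sperm gave 0.362. Single members changed sign within 200 bp: Foxl2 (0.10), Sox1 (0.54), Tbx18 (-0.067, and -0.18 with the scaled pseudocount), Tbx2 (0.13) and Sox21 (-0.96, and -1.63), while Foxd3 came to 0.00 with the scaled one. Sox1 also did within 2000 bp (0.32). No replicate numbers pair the libraries, and the paired comparison of pellet and supernatant by dose is given with its result. Depth limits single members in the titrations.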

Other observations

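Other genes of the same families, outside the 49, lay at higher levels than the members. Over the start sites of such genes the median log2 ratio of standard sperm to ES cells was -0.35, with 38.5% at a 1.5-fold lower and 10.1% at a 1.5-fold higher share, where all start sites had 22.2% and 17.5%. At 14.7% the share was 2-fold lower, against 22% of the members. Their mean level was 0.868 in ES cells and 0.692 in standard sperm, where the members had 0.700 and 0.540. The bHLH genes outside the list had a median of -0.43 over 45 start sites, 22 of them lower by 1.5-fold and 1 higher. T-box genes outside it had -0.49 over 10, Sox genes -0.39 over 12 and Fox genes -0.28 over 38. The 1 Gata start site outside the list had -0.34, where the Gata members had a median of -1.19. Its level in ES cells was 0.828, beside a mean of 0.832 over the Gata members. The other 3 Zic start sites had a pooled log2 ratio of 0.80 (0.05 to 1.55), on 30 fragments in ES cells and 35 in standard sperm. Their mean levels of 0.311 in ES cells and 0.542 in standard sperm were below the 0.799 and 0.913 of the Zic members. In the titrations all start sites of the families outside the list, pooled, had folds from lowest to highest dose of 1.58 (1.18 to 2.13) in the unspun and 1.63 (1.20 to 2.26) in the supernatant series, and 1.61 (0.955 to 2.82) in the pellet.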
